A study of Mus musculus and Bos taurus with 6 samples.

Results

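The cluster of miR-183, miR-96 and miR-182 comprises 3 miRNA precursors, mir-183, mir-96 and mir-182, each of which can give a 5p and a 3p mature strand. All rows with a mouse or bovine prefix whose name without the arm was miR-183, miR-96 or miR-182 were taken. They were 6 of the 1750 rows of the mouse list (mmu-miR-183-5p, mmu-miR-183-3p, mmu-miR-96-5p, mmu-miR-96-3p, mmu-miR-182-5p and mmu-miR-182-3p) and 4 of the 1539 rows of the bovine list (bta-miR-183, bta-miR-96 and bta-miR-182, which are 5p strands, and mmu-miR-183-3p placed on the bovine precursor). The rule uses names only.

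Small RNA of lactating mammary gland was sequenced in 3 groups of 2 libraries. The mouse group held total small RNA of FVB/N mice at lactation day-12, from abdominal glands whose lymph node had been removed. The AGO2 group held the small RNA that came down with Argonaute 2 from glands of FVB/N mice at the same day, precipitated with a monoclonal antibody. The study describes collecting glands from 2 FVB/N mice, so that the mouse and AGO2 libraries may share animals. The bovine group held total small RNA of Holstein cows at mid-lactation, each library a pool of biopsies of 2 cows on a diet of 46 parts forage to 54 parts concentrate. The mouse and bovine groups had no precipitation, and no group was a genetic or drug model. The mouse and bovine libraries are of bulk tissue, in which fewer cells of a type and less miRNA per cell cannot be told apart. In the AGO2 libraries, which were precipitated from lysate of such tissue, these and the share of a strand bound to the protein cannot be told apart. The libraries are called 1 and 2 within each group.

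A miRNA precursor is a hairpin that is cut into a duplex, from which 1 strand is usually kept by an Argonaute protein and guides it to mRNA through its seed, the nucleotides 2 to 8. The 3 precursors of this cluster lie close together in vertebrate genomes. They are best known from sensory cells of the ear and retina, and they are also found in epithelia, where their expression is raised in many carcinomas.

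The mature mouse strands are shown with the seed in capitals, because the 3 5p strands differ in it by only 1 or 2 bases. They are the sequences in the deposited mouse list, 5′ to 3′.
mmu-miR-183-5p: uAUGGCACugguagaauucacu
mmu-miR-96-5p: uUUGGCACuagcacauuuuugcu
mmu-miR-182-5p: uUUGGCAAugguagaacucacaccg
mmu-miR-183-3p: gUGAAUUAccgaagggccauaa
mmu-miR-96-3p: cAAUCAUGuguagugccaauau
mmu-miR-182-3p: gUGGUUCUagacuugccaacu
The seeds of the 5p strands were AUGGCAC for miR-183-5p, UUGGCAC for miR-96-5p and UUGGCAA for miR-182-5p, so that no pair shared all of nucleotides 2 to 8. Counted from 1 at the 5′ end, the first change from miR-183-5p to miR-96-5p was A2U, and the first change from miR-96-5p to miR-182-5p was C8A. miR-96-5p and miR-182-5p thus shared nucleotides 2 to 7. Over all positions compared, seed included, the kinship was different. miR-183-5p and miR-182-5p were identical at 18 of 22 positions and differed by A2U, C8A, U17C and U22A, whereas miR-183-5p and miR-96-5p were identical at 13 of 22. The 3 5p strands began with U, as did 94 of the 171 mouse rows that reached 100 RPM (reads per 1000000 miRNA reads) in a mouse library (54.97%), and the 3p strands began with G or C.

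The 3 hairpins are given with both mature strands in capitals, to show where on each hairpin the counted strands lie. The sequences and positions are those of RefSeq on GRCm38.p6.
Mir183: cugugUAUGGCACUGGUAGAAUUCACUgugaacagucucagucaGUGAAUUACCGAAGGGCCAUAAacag
Mir96: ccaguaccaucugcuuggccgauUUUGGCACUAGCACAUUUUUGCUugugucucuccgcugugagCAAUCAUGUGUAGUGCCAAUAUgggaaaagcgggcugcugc
Mir182: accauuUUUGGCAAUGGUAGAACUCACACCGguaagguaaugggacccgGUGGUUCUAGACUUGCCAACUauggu
All 6 mature strands in RefSeq had the sequence counted in the files. The hairpins lie on the minus strand of chromosome 6, Mir183 at chr6:30169668-30169737, Mir96 at chr6:30169446-30169551 and Mir182 at chr6:30165918-30165992, so that the cluster spans 3820 bp. Mir183 and Mir96 are separated by 116 bp, and Mir96 and Mir182 by 3453 bp. In the GENCODE annotation each is a miRNA gene of its own that lies in no exon or intron of another gene. The nearest genes are the lincRNA Rncr4, 3155 bp away, and the protein-coding gene Nrf1, 12459 bp away, both on the plus strand.

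The bovine strands are shown because the bovine and mouse counts are compared strand by strand.
bta-miR-183: uAUGGCACugguagaauucacug
bta-miR-96: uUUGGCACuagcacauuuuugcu
bta-miR-182: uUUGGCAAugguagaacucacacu
hsa-miR-96-3p: aAUCAUGUgcagugccaauaug
bta-miR-1271: cUUGGCACcuaguaaguacuca
The seeds of the 3 bovine 5p strands were those of the mouse. bta-miR-96 was identical to the mouse strand, bta-miR-183 was 1 base longer, and bta-miR-182 differed from the mouse strand by C24U and was 1 base shorter. The row hsa-miR-96-3p was counted on the bovine mir-96 precursor under a human prefix and was outside the rule for members. It starts 1 base later than mmu-miR-96-3p and differs from it by U10C over the 21 shared bases, counted from the first of them. bta-miR-1271, no member of the cluster, had the seed of miR-96-5p. No row for miR-182-3p was found in the bovine list used here.

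The sum of miRNA counts per library was 9299807 and 8391916 in mouse, 3909166 and 5041406 in AGO2, and 9402483 and 10613807 in bovine. RPM were taken over these sums. A count of 0 allowed up to 3 counts, which is 0.323 and 0.357 RPM in mouse, 0.767 and 0.595 RPM in AGO2 and 0.319 and 0.283 RPM in bovine. These limits and all intervals below cover counting error only, that is, the sampling of reads within 1 library. The reads carried no molecular identifiers, so that PCR copies could not be told from separate molecules. Over miRNA with at least 100 RPM in a library of the group, the SD of the log2 ratio between libraries 1 and 2 was 0.93 in mouse, 0.88 in AGO2 and 0.31 in bovine, so that the mouse and AGO2 libraries agreed less well than the bovine ones.

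In mouse mammary gland the 5p strands were the abundant ones. miR-182-5p was at 2302 and 1560 RPM in mouse libraries 1 and 2 (1931 ± 524, SD, n = 2), on 21404 and 13092 reads. miR-183-5p was at 822 and 658 RPM (740 ± 116, SD, n = 2). miR-96-5p was at 565 and 994 RPM (780 ± 303, SD, n = 2). miR-182-5p led in both libraries, and its lowest value lay above the highest of the other 2 strands. miR-183-5p and miR-96-5p changed order between the libraries and did not differ beyond their spread. The 3 strands together made 3688 and 3212 RPM.

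The 3p strands were scarce. miR-183-3p was at 73.8 and 61.1 RPM, on 686 and 513 reads. miR-96-3p was at 4.19 and 6.67 RPM, on 39 and 56 reads. miR-182-3p had 0 reads in mouse library 1 and 3 reads in library 2, and the latter is 0.357 RPM with a 95% Wilson interval from 0.122 to 1.05 RPM. The order miR-183-3p, miR-96-3p, miR-182-3p held in both libraries, and the levels did not overlap. The precursor with the most abundant 5p strand thus had the least abundant 3p strand.

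In the AGO2 libraries miR-182-5p was at 725 and 561 RPM (643 ± 116, SD, n = 2). miR-183-5p was at 333 and 145 RPM (239 ± 133, SD, n = 2), on 1300 and 729 reads. Both lay below both mouse libraries. miR-96-5p was at 461 and 614 RPM (538 ± 109, SD, n = 2), and the higher AGO2 value lay above the lower mouse value. miR-182-5p led in library 1 and miR-96-5p in library 2, so that the order of these strands was not settled. miR-183-5p was the lowest 5p strand in both.

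Of the 3p strands in AGO2, miR-183-3p was at 33.0 and 90.8 RPM, 1 library below and 1 above the mouse range. miR-96-3p had 0 and 4 reads, and the latter is 0.793 RPM (95% Wilson interval 0.309 to 2.04). miR-182-3p had 0 and 11 reads, the latter 2.18 RPM (1.22 to 3.91). Both of these strands were thus at or near the limit of detection in AGO2 library 1.

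In the bovine libraries miR-182-5p was at 530 and 519 RPM (525 ± 7.8, SD, n = 2). miR-183-5p was at 114 and 157 RPM (136 ± 30.2, SD, n = 2). miR-96-5p was at 88.5 and 96.4 RPM (92.4 ± 5.6, SD, n = 2). The order miR-182-5p, miR-183-5p, miR-96-5p held in both libraries without overlap. miR-183-3p was at 4.57 and 5.18 RPM, on 43 and 55 reads, and the hsa-miR-96-3p row had 4 and 11 reads (0.425 and 1.04 RPM). All bovine values of the 5p strands and of miR-183-3p lay below all mouse values.

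**Figure D1:**
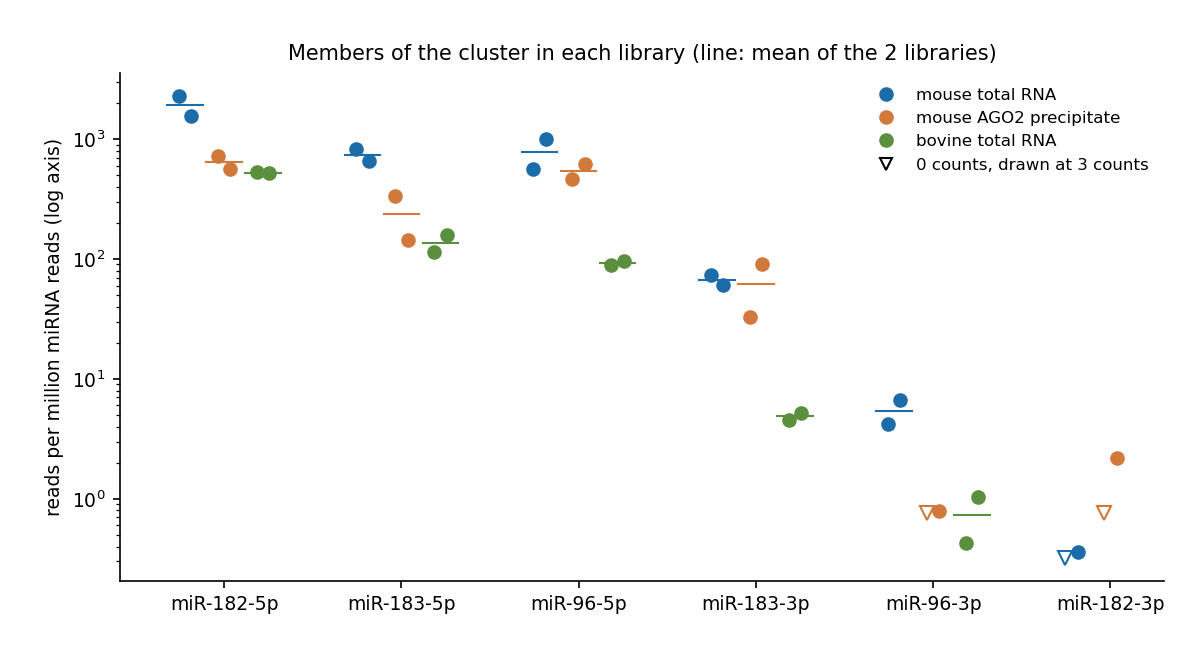
Level of each mature strand in RPM on a log axis, with 1 point per library and a line at the mean of the 2 libraries, for mouse, AGO2 and bovine. The 5p strands lie above the 3p strands in every library, the bovine points of the 3 5p strands lie between 88.5 and 530 RPM, and open triangles stand for 0 reads drawn at the value of 3 reads.

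Nucleotides 2 to 8 were shared with no other mouse row, so that each 5p strand was alone in its seed group. With nucleotides 2 to 7, miR-96-5p and miR-182-5p formed 1 group of 2867 and 2554 RPM in mouse and 1185 and 1175 RPM in AGO2. In bovine these 2 strands summed to 619 and 616 RPM. bta-miR-1271 added to the bovine seed of miR-96-5p with 149 and 141 reads, which are 15.8 and 13.3 RPM. It was thus several times less abundant than bta-miR-96 itself. A predicted bovine strand with the seed of miR-182-5p stayed below 1 RPM.

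The make-up of the cluster was described by the share of each strand in the summed reads of the 3 5p strands. miR-182-5p made 62.4% and 48.6% in mouse, 47.7% and 42.5% in AGO2 and 72.3% and 67.2% in bovine. It made the largest share in bovine, and there the libraries lay above both mouse libraries. miR-96-5p made 15.3% and 30.9% in mouse, 30.4% and 46.6% in AGO2 and 12.1% and 12.5% in bovine. The 95% Wilson interval of its share was 14.9% to 15.7% in mouse library 1 and 30.4% to 31.5% in mouse library 2, so that libraries of the same group differed far beyond counting error. miR-183-5p made 22.3% and 20.5% in mouse, 21.9% and 10.96% in AGO2 and 15.6% and 20.3% in bovine.

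**Figure D2:**
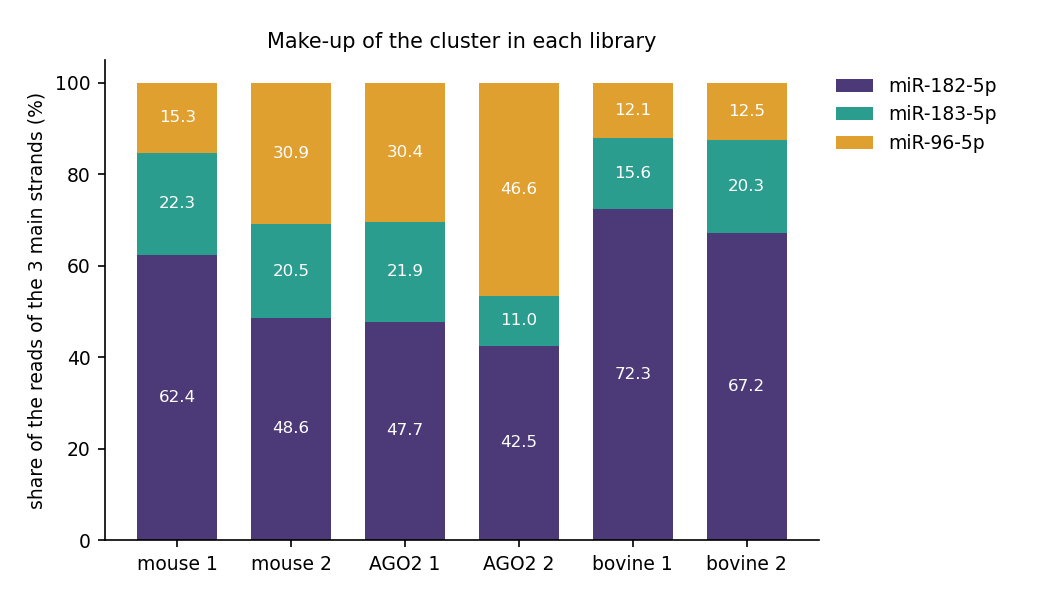
Share of miR-182-5p, miR-183-5p and miR-96-5p in the reads of these 3 strands, in percent, with 1 bar per library. miR-182-5p makes the most in 5 of the 6 libraries, and miR-96-5p makes the most, 46.6%, in AGO2 library 2.

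Ratios within a library do not depend on its total. The ratio of miR-182-5p to miR-96-5p was 4.07 and 1.57 in mouse, 1.57 and 0.913 in AGO2 and 5.99 and 5.39 in bovine. On the log2 scale it was higher by 1.17 in bovine than in mouse with no overlap (exact permutation test, two-sided p = 0.33, adjusted p = 0.75). The AGO2 and mouse values overlapped, with a difference of -1.08 (exact permutation p = 0.667, adjusted p = 0.857). The ratio of miR-182-5p to miR-183-5p was 2.80 and 2.37 in mouse, 2.18 and 3.88 in AGO2 and 4.64 and 3.31 in bovine. It was higher by 0.60 on the log2 scale in bovine than in mouse (exact permutation p = 0.33, adjusted p = 0.75), and the AGO2 values lay on both sides of the mouse ones. The ratio of miR-96-5p to miR-183-5p was 0.688 and 1.51 in mouse, 1.39 and 4.25 in AGO2 and 0.774 and 0.614 in bovine, which overlapped in both comparisons. These were 9 tests in all, and with 2 libraries against 2 the smallest two-sided p is 0.33, so that none could pass.

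AGO2 was set against mouse to ask how the strands bound to the protein relate to those in the tissue. miR-182-5p and miR-183-5p were lower in both AGO2 libraries than in both mouse libraries, whereas the groups overlapped for miR-96-5p and miR-183-3p. Such a lack of overlap was not particular to these strands, as miR-16-5p and miR-22-3p, neither of them called, showed it too. The share of all miRNA tested that showed it was not counted. By edgeR's quasi-likelihood test none of the 4 strands that passed the count filter was called at an adjusted p under 0.05. The log2 fold change was -1.43 for miR-182-5p (SE 0.58, adjusted p = 0.0684) and -1.50 for miR-183-5p (SE 0.65, adjusted p = 0.0832). It was -0.39 for miR-96-5p (SE 0.62, adjusted p = 0.621) and 0.06 for miR-183-3p (SE 0.76, adjusted p = 0.956). miR-96-3p and miR-182-3p did not pass the filter of a minimum highest count over the 4 libraries, which is that of the study. Of the 299 miRNA tested, 12.4% were called lower and 15.4% higher in AGO2, and the median log2 fold change was -0.12.

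The unadjusted edgeR p was under 0.05 for 2 of the 4 strands, miR-182-5p (0.0231) and miR-183-5p (0.032). It was under 0.05 for 131 of the 299 miRNA tested. DESeq2 called miR-182-5p and miR-183-5p, with an adjusted p of 0.0215 and 0.0352. Of all miRNA tested, it called 69 higher and 48 lower in AGO2. An edgeR fit with the library number as a block, added after seeing the data, also called these 2 strands (adjusted p = 0.0153 and 0.0211). It called 60 miRNA higher and 61 lower of the 299, and the labels do not say that equal numbers share a mouse. From the lowest log2 fold change upwards, miR-183-5p ranked 70, miR-182-5p 73, miR-96-5p 139 and miR-183-3p 159 of the 299. The strands of this cluster therefore lay inside the range of the other miRNA. With 1 library left out in turn, the adjusted p of miR-182-5p ran from 0.0834 to 0.315 and that of miR-183-5p from 0.13 to 0.439.

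The lists of miRNA known from certain cell types also differed between AGO2 and mouse. The 10 listed epithelial miRNA summed to 164691 and 191395 RPM in mouse and to 339524 and 369372 RPM in AGO2, in which miR-200a-3p alone made 267861 and 255991 RPM. Of 9 tested, 2 were called higher and 4 lower in AGO2, with a median log2 fold change of -0.85. The erythroid list summed to 6504 to 13343 RPM in mouse and 15527 to 32468 RPM in AGO2, and 1 of its 3 miRNA was called higher (median 1.40). The sums were 24194 to 34265 against 28819 to 29280 RPM for the 2 endothelial miRNA, 1 of which was called higher and 1 lower (median -0.06). The stromal list summed to 54443 to 71185 RPM in mouse and 35114 to 37249 RPM in AGO2 (median log2 fold change 0.06), and edgeR called 0 of 5, with 2 at an unadjusted p under 0.05 and 1 called by DESeq2. The leukocyte list summed to 1263 to 2123 RPM and 2351 to 2971 RPM (median 0.84), and edgeR called 0 of 5, with 1 at an unadjusted p under 0.05 and 2 called by DESeq2. The muscle list summed to 163 to 213 RPM and 27.9 to 70.2 RPM (1 of 2 called lower, median -0.06). None of the lists was at 0 as a whole, and their part in the values of the cluster was not tested.

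Bovine was set against mouse to ask how far the cluster is shared between the 2 lactating species. The 3 5p strands were lower in both bovine libraries than in both mouse libraries. So were other miRNA that were not called, among them miR-148a-3p and miR-30d-5p. The share of all miRNA tested without overlap was not counted. By edgeR's quasi-likelihood test, the log2 fold change of the 5p strands was -2.25 for miR-182-5p (SE 0.36, adjusted p = 0.00291), -2.81 for miR-183-5p (SE 0.38, adjusted p = 0.00186) and -3.44 for miR-96-5p (SE 0.43, adjusted p = 0.00134). Of the 158 miRNA tested, 27.8% were called lower and 27.2% higher in bovine, and the median log2 fold change was 0.06. All 3 5p strands were called, against more than 1 in 4 of all miRNA in this direction. From the lowest upwards they ranked 23 (miR-182-5p), 20 (miR-183-5p) and 12 (miR-96-5p) of 158. Without mouse library 2 the log2 fold change was -2.98 for miR-96-5p and -2.96 for miR-183-5p, so that the gap between them depended on that library.

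miR-183-3p was under 100 RPM in all 4 libraries and was not among the 158. When all matched miRNA were tested without that filter, its log2 fold change was -4.28 (SE 0.45, adjusted p = 5.17e-05), and that of miR-96-3p, counted under the human prefix in bovine, was -3.35 (SE 0.69, adjusted p = 0.0025). That fit called 91 miRNA higher and 98 lower in bovine, of at most 360 matched. Library totals without TMM scaling moved the median of all tested miRNA from 0.06 to 0.43 in this comparison, and the 3 5p strands were lower by at least 1.88 under every alternative. Species, kit for RNA isolation, pooling, parity (primiparous mice and multiparous cows) and the way the tissue was taken changed together and cannot be told apart.

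**Figure D3:**
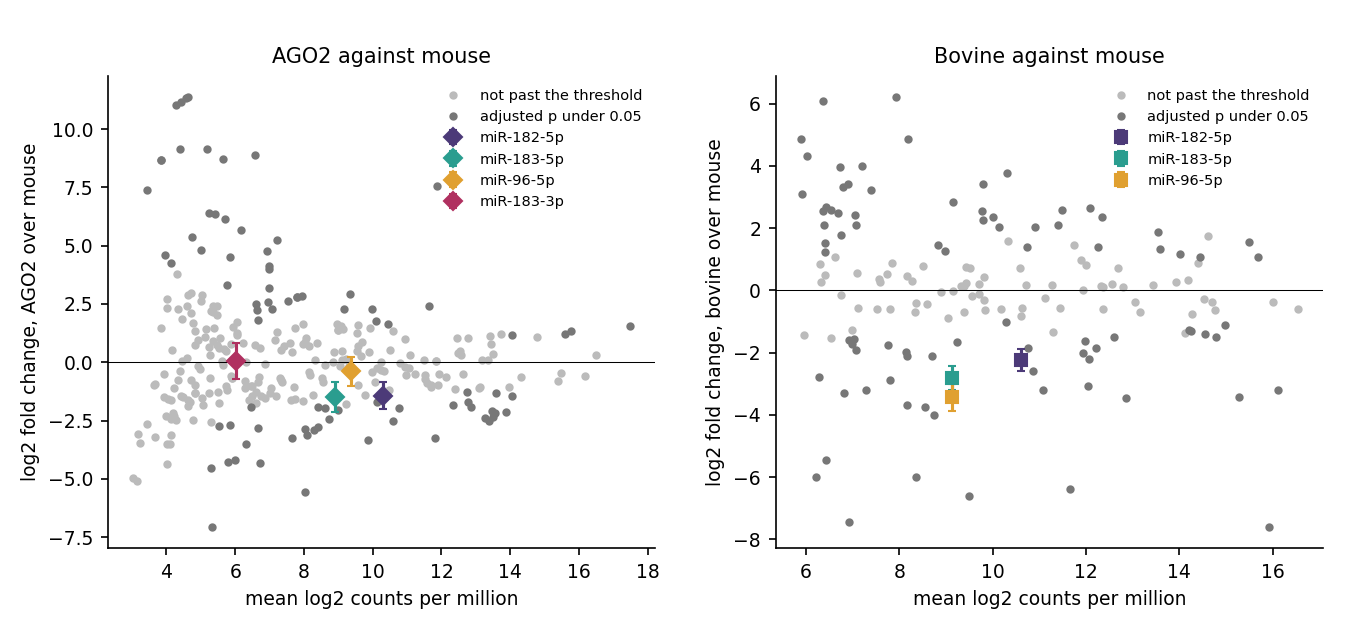
Log2 fold change against mean log2 counts per 1000000, for AGO2 over mouse (left) and bovine over mouse (right), with 1 point per miRNA tested and the members as large symbols with the SE. Diamonds are members not past the threshold and squares are members past it, and the 3 5p strands lie at -2.25 to -3.44 on the right.

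Set beside the other epithelial miRNA, the 3 5p strands came to 2.24% and 1.68% of the summed epithelial list in mouse, 0.447% and 0.357% in AGO2 and 0.915% and 0.939% in bovine. Both other groups lay below both mouse libraries. In AGO2, however, miR-200a-3p alone made 267861 and 255991 RPM of the 339524 and 369372 RPM of the list. The list itself summed to 80121 and 82273 RPM in bovine, where 9 of its 10 miRNA were found. Of 8 listed miRNA tested in bovine against mouse, 1 was called higher and 4 lower, with a median log2 fold change of -0.68. miR-200a-3p fell from 75449 and 118479 RPM in mouse to 13948 and 13093 RPM in bovine, whereas the 1 called higher, miR-205-5p, which was named after its values were seen, was at 915 and 626 RPM in mouse and at 4096 and 4427 RPM in bovine. The listed epithelial miRNA thus did not move one way.

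Lists of other cell types also differed between the species. The 2 endothelial miRNA summed to 55972 to 62356 RPM in bovine, above both mouse libraries, and were not matched by name. The stromal list summed to 63692 to 78041 RPM (median 0.17), and of 4 tested, 0 were called by edgeR, 0 by DESeq2 and 0 at an unadjusted p under 0.05. The erythroid list was at 1098 to 1709 RPM (1 of 2 called lower, median -3.64), the leukocyte list at 2553 to 3285 RPM (2 of 5 called higher and 2 lower, median 0.14) and the muscle list at 727 to 782 RPM (none of its miRNA was among the 158 tested). Of the epithelial list, miR-184-3p was at or near 0 in every library. The part of other cell types in the lower level of the cluster was not tested.

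The 2 arms of a precursor were compared within each library. miR-183-3p made 8.24% and 8.50% of the reads of both miR-183 arms in mouse, with 95% Wilson intervals of 7.67% to 8.85% and 7.82% to 9.23%. It made 9.03% in AGO2 library 1 (7.65% to 10.6%) and 38.6% in AGO2 library 2 (35.9% to 41.4%). In bovine it made 3.85% (2.87% to 5.14%) and 3.19% (2.46% to 4.13%). AGO2 library 2 therefore stood apart, AGO2 library 1 was within the counting error of mouse, and both bovine libraries lay below mouse.

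The ratio of miR-183-5p to miR-183-3p was 11.1 and 10.8 in mouse, 10.1 and 1.59 in AGO2 and 25.0 and 30.3 in bovine. In the test of arm usage the 5p arm changed by 1.56 less than the 3p arm on the log2 scale between AGO2 and mouse (difference -1.56, edgeR diffSpliceDGE, adjusted p = 0.294), in a comparison in which 6.94% of 144 precursors were called. Without AGO2 library 2 the difference was -0.12 (adjusted p = 0.909), and without AGO2 library 1 it was -2.79 (adjusted p = 0.0256), so that the value depended on library 2. Between AGO2 libraries 1 and 2, log2 of 3p over 5p rose by 2.66 for miR-183, the rank 7 of 62 precursors with at least 20 reads of each arm, over which the SD was 1.55. Between the mouse libraries the same change was 0.05, rank 86 of 89.

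Between bovine and mouse the difference in arm usage of miR-183 was 1.34 (adjusted p = 0.0407), which means a greater share of 5p in bovine, in a comparison in which 28.3% of 99 precursors were called. The call was lost without bovine library 1 (1.46, adjusted p = 0.342) and without bovine library 2 (1.18, adjusted p = 0.431). The exact permutation test of the log2 ratio gave p = 0.33 (adjusted p = 0.75), the smallest it can give. The mature miR-183-3p ends in 2 A, and stretches of A were removed from the reads of all libraries, the effect of which on this strand was not tested.

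**Figure D4:**
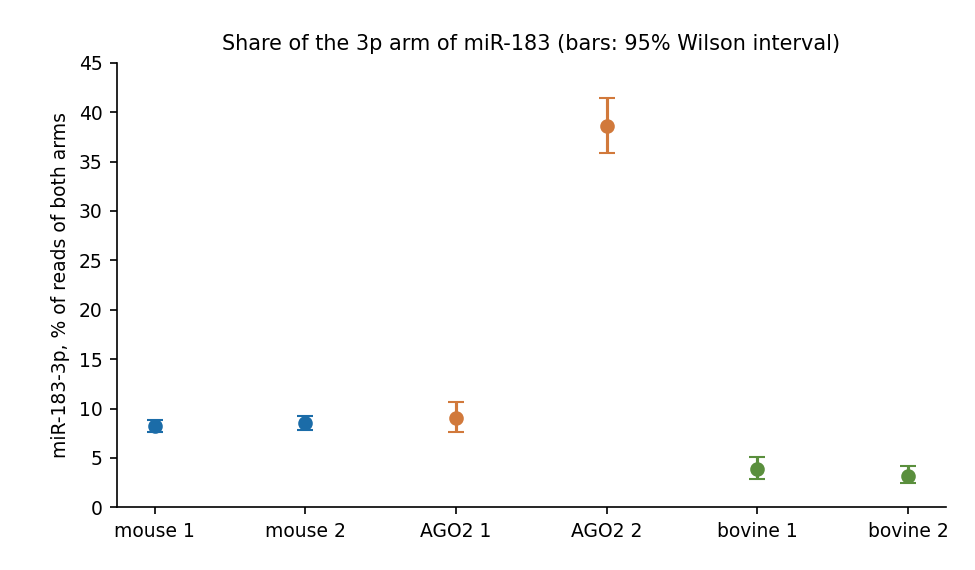
Share of miR-183-3p in the reads of both miR-183 arms, in percent, with 1 point per library and the 95% Wilson interval. AGO2 library 2 lies at 38.6%, the mouse libraries and AGO2 library 1 at 8.24% to 9.03% and the bovine libraries at 3.19% and 3.85%.

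The 3p arm of miR-96 made 0.737% and 0.667% of the reads of both arms in mouse and 0.478% and 1.06% in bovine. In AGO2 it made 0 of 1801 reads, which allows up to 0.167%, and 4 of 3101 reads, or 0.129% (0.0502% to 0.331%). Both AGO2 libraries thus lay below both mouse libraries in this arm. The difference in arm usage was 3.095 between AGO2 and mouse (adjusted p = 0.278), but it rests on 4 reads of the 3p arm in AGO2. Between bovine and mouse it was -0.23 (adjusted p = 0.843).

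The 3p arm of miR-182 had 0 of 21404 reads in mouse library 1, which allows up to 0.014%, and 3 of 13095 reads in library 2, or 0.0229%. In AGO2 it had 0 of 2833 reads, which allows up to 0.106%, and 11 of 2838 reads, or 0.388% (0.217% to 0.693%). The 3p reads of miR-182 were too few for a test of arm usage. In AGO2 library 2 the share of 3p reads was thus above both mouse libraries for miR-183 and miR-182 and below both for miR-96.

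The 5 miRNA whose profile over the 6 libraries was most like the cluster were found by the root mean square (RMS) difference of mean-centred log2(RPM + 1) from the mean of the 3 5p strands, among 164 matched miRNA with at least 100 RPM in a library. They were miR-503-5p (RMS difference 0.22), miR-221-3p (0.32), miR-181d-5p (0.33), miR-708-5p (0.35) and miR-222-3p (0.36). For comparison, the same RMS difference was 0.34 for miR-183-5p, 0.40 for miR-182-5p and 0.65 for miR-96-5p. Both miR-182-5p and miR-96-5p were thus less like the mean than any of these 5, which were picked for their likeness. miR-221-3p was far more abundant, at 5457 and 5190 RPM in mouse, 2249 and 2576 RPM in AGO2 and 1568 and 1433 RPM in bovine. miR-503-5p was at 85.6 and 120 RPM in mouse, 63.4 and 44.8 RPM in AGO2 and 19.1 and 19.2 RPM in bovine. Both were highest in mouse and lowest in bovine, as were miR-182-5p, miR-96-5p and miR-183-5p by their group means, and this likeness is a description over 6 libraries.

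**Figure D5:**
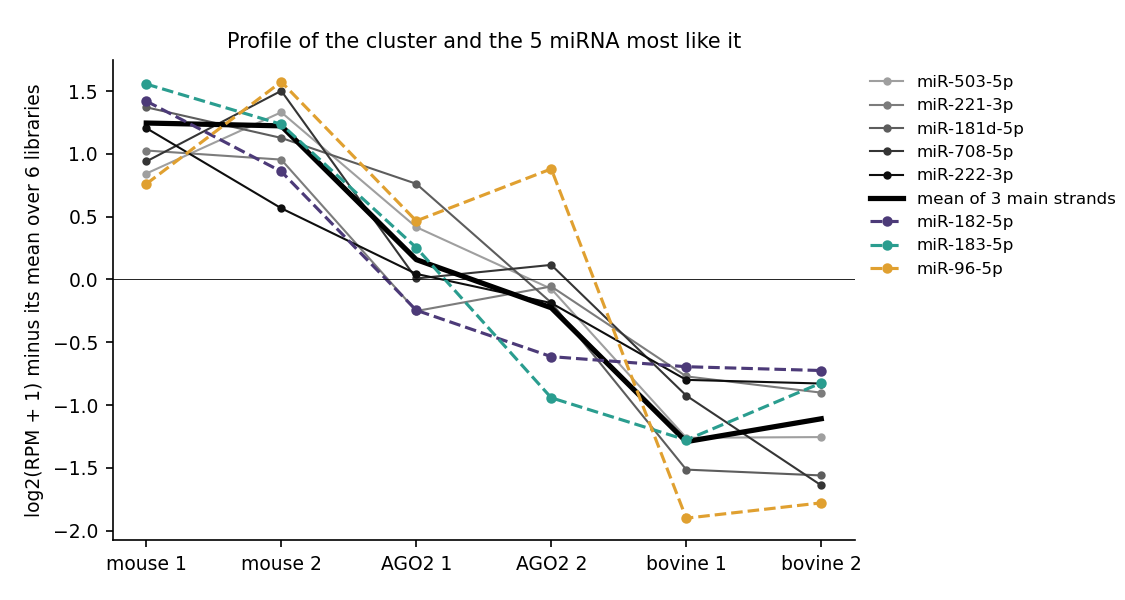
Log2(RPM + 1) minus its mean over the 6 libraries, for the 5 miRNA most like the cluster (grey), the mean of the 3 5p strands (thick black) and each 5p strand (dashed). miR-96-5p departs most from the mean, with an RMS difference of 0.65, and lies above it in AGO2 library 2 and below it in both bovine libraries.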

How the data were processed

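Small RNA was poly(A)-tailed, built into libraries and sequenced on an Illumina HiSeq instrument by the authors. Their reads were freed of A stretches, limited to lengths from 17 to 28 nt and quantified by miRDeep2 on known (miRBase 20) and predicted hairpins of GRCm38 and UMD3.1. The deposited counts are raw reads per mature miRNA. A second deposited column of normalised counts (other units) and the lists of predicted precursors were not used. Mouse and bovine RNA were isolated with different kits.

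RPM were computed over the sum of counts of each library, and 3 counts were taken as the limit of a count of 0. The tests across miRNA used the edgeR package (version 4.0.16, under R 4.3.3; TMM, quasi-likelihood F test, Benjamini-Hochberg adjustment over all miRNA tested, adjusted p under 0.05). For AGO2 against mouse, the highest count over the 4 libraries had to exceed the minimum set by the study. For bovine against mouse, 360 miRNA were matched by name and arm, of which any that reached 100 RPM in some library entered the test. Arm usage was tested with diffSpliceDGE on precursors with at least 20 counts over the 4 libraries for each arm. Ratios were compared with exact two-sided permutation tests. Wilson intervals were computed at 95%. Medians of the lists are over the miRNA tested. The procedures were tested on simulated data. Alternatives were DESeq2 1.42.0, other scalings and filters, other matching, a block of the library number and each library left out. Other steps ran in Python 3.11.15, with SciPy 1.17.1 for intervals and permutations, NumPy 2.4.6 and pandas 2.3.3 for tables, and matplotlib 3.10.9 for plots.

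Named miRNA were all members, any row of the same mature name under another prefix, those sharing nucleotides 2 to 8 with a 5p member at 1 RPM or more, and the 5 most alike, with up to 3 miRNA of a list. The members and lists were chosen with earlier results of these data known. Libraries were numbered in accession order. The labels do not tie libraries of the 2 mouse groups to animals. The study collected glands from 2 mice, so that these groups may share animals, which the main fit does not take into account. The p-values measure the spread between libraries. Targets were not analysed here.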

Additional observations from a re-analysis of the deposited data

How the results depend on the processing

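The lower level of the 3 5p strands in bovine was called under every alternative that could test them, with miR-182-5p at -2.50 to -1.88, miR-183-5p at -3.14 to -2.45 and miR-96-5p at -3.79 to -2.98. Matching by identical sequence left only miR-96-5p. For AGO2 against mouse, the strands miR-182-5p and miR-183-5p were called with the study's number of sized reads as library size (-2.01 and -2.04, adjusted p = 0.018 and 0.0307), by DESeq2 (-1.32 and -1.39) and with the library number as a block, and under none of the other alternatives run. The log2 fold change of miR-183-3p turned to -0.12 with library totals, -0.57 with sized reads and -0.063 with no filter, and ran from -0.93 to 0.97 with 1 library left out. That of miR-96-5p ran from -0.77 to 0.18 with 1 library left out and was 0.13 without mouse library 2 and 0.18 without AGO2 library 1. The median of all tested miRNA moved from -0.12 to -0.27 with library totals and -0.68 with sized reads.

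Of all miRNA, 46 were called higher and 37 lower in AGO2, against 69 lower with sized reads and 29 higher with no filter, and 28 to 65 higher and 22 to 41 lower with 1 library left out. In bovine 43 were called higher and 44 lower, against 91 and 98 with no filter, 70 lower with the count filter of the AGO2 comparison and 19 and 21 with identical sequences, and 29 to 64 higher and 26 to 58 lower with 1 library left out. The number of precursors called in arm usage was 10 in AGO2, 20 with at least 100 counts per arm and 1 to 67 with 1 library left out, and 28 in bovine, 9 to 57 with 1 left out. The miR-96 arm difference in bovine ran from -0.64 to 0.48 (reversed without bovine library 2), and the one in AGO2 was called only without AGO2 library 2 (7.56, adjusted p = 0.00552), where no 3p read was left in AGO2. A pseudocount of 1 turned no ratio. The cause of these changes was not tested, except that fewer miRNA or libraries enter some alternatives.

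The labels give no replicate numbers, and the study numbers its mouse and AGO2 samples 1 and 2 without saying that equal numbers come from 1 mouse. The log2 differences of library 1 over 2 in mouse and AGO2 correlated over the 299 miRNA tested (Pearson r = 0.28, across miRNA, which are not independent replicates). Over the 250 miRNA with at least 20 counts in all 4 libraries, r was 0.40. With the library number as a replicate block, added after seeing the data, 60 miRNA were higher and 61 lower in AGO2, and 19 precursors were called in arm usage. The block gave -1.42 for miR-182-5p (adjusted p = 0.0153), -1.59 for miR-183-5p (adjusted p = 0.0211), -0.34 for miR-96-5p (adjusted p = 0.499), -0.14 for miR-183-3p (adjusted p = 0.875) and an arm difference of -1.45 for miR-183 (adjusted p = 0.426). Between libraries of equal number, miR-96-5p and the ratio of miR-182-5p to miR-96-5p were lower in AGO2, and the ratio of miR-96-5p to miR-183-5p was higher, in 2 of 2 pairs. With 2 libraries per group, spreads of miR-96-5p in mouse and of both miR-183 strands in AGO2 limit what can be told, and the 3p strands of miR-96 and miR-182 lie near the depth limit in AGO2. Added after seeing the data, the match of bovine names without the letter a left the 3 calls in place.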
